A study of Mus musculus with 24 samples.

Results

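Antioxidant enzymes and targets of the transcription factor NRF2 were followed in mouse mammary fat across diet and distance from a breast tumor. The 10 genes were Hmox1, Nqo1, Gclc, Gclm, Srxn1, Txnrd1, Sod1, Sod2, Sod3 and Gpx3. They were matched by symbol, and all 10 were found among the 39017 genes of the count matrix. The list was chosen with earlier results of these data known. Counts of its calls beside those of all genes are therefore descriptions and not a test of the list. NRF2, encoded by Nfe2l2, is held low by KEAP1, and under oxidative or electrophilic stress it enters the nucleus, pairs with small MAF proteins and binds antioxidant response elements of genes for glutathione synthesis, thiol reduction and heme breakdown. BACH1 competes for such elements and represses Hmox1 until heme displaces it. The superoxide dismutases and the secreted glutathione peroxidase Gpx3 dispose of superoxide and peroxides in different compartments, and fat is a known source of circulating Gpx3.

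The samples were C57BL/6 mammary fat pads (4th gland, subcutaneous), flash frozen and sequenced as total RNA after depletion of ribosomal RNA. The 24 libraries formed 6 groups of 4: fat beside the tumor (peritumoral), fat of the opposite side (contralateral) and fat of mice without a tumor, each on a high-fat diet (HFD) and on Chow. The titles mark all peritumoral libraries L and all contralateral and no-tumor libraries R. If these letters name the body side, side and nearness to the tumor cannot be told apart in comparisons of peritumoral fat with other positions. The series describes the comparison as obese against lean mice, near to and far from the tumor. The tumor model, the diets' composition, the ages, and whether the 4 replicates of a group came from 4 animals were not given in the sources used here. Nor do the titles say whether peritumoral and contralateral libraries of 1 replicate number share a mouse, as 2 sides of 1 animal would. All p-values therefore reflect variation among these 24 libraries, part of which may be technical.

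Library totals ran between 9130125 and 18204747 counts, and depth followed the groups. Chow peritumoral libraries had 9130125 to 14460254 counts and Chow contralateral libraries 11686381 to 13849031. Every library of the other groups had 14979723 or more. Comparisons of Chow peritumoral or Chow contralateral fat with those other groups run across this split, and the part of depth was not tested. Mitochondrial ribosomal RNA took 20.5 to 35.8% of counts, with 20.5 to 22% in HFD no-tumor libraries and 29.6 to 34.8% in Chow no-tumor libraries. The ribosomal-repeat gene Gm42418 took 0.0212 to 11.4% of counts in Chow contralateral libraries and at most 0.0922% in any other group. Fat markers were high in every library (8 adipocyte markers summed to 7110 CPM or more). Skeletal muscle markers summed to 2620 CPM or more in 3 of 4 Chow contralateral libraries and 74.9 CPM in replicate 3, and to 30.3 to 233 CPM in the HFD peritumoral libraries. Levels are counts-per-million (CPM) values, with library sizes scaled by TMM factors over all 24 libraries. Fold changes are log2 values from edgeR's quasi-likelihood test with Benjamini-Hochberg adjustment over all genes tested, called at an adjusted p under 0.05, and errors on them are standard errors. Whether libraries of different groups overlap is given as a description of the gene named. How many of all genes separate in the same way was not counted. In whole tissue, fewer cells of a type and less RNA per cell cannot be told apart.

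Per kilobase of exon, Gpx3 was the most abundant of the 10 genes, with a mean of 350 CPM per kilobase over the 24 libraries. Sod1 followed at 131, Sod3 at 66.8 and Hmox1 at 46.3 CPM per kilobase. Sod2 (22.2), Gclc (18) and Txnrd1 (17.2 CPM per kilobase) lay close together, above Srxn1 at 7.95 and Gclm at 5.96. Nqo1 was the lowest at 2.56 CPM per kilobase, with 21 counts in its shallowest library. The highest group mean was 16.3 times the lowest for Hmox1, 5.21 times for Sod3, 4.07 times for Gpx3 and 1.21 times for Gclm.

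In HFD mice, peritumoral fat held more Hmox1, Srxn1 and Txnrd1 RNA than contralateral fat, and less Sod1. These 4 of 10 genes were called, beside 29.5% of all genes in that comparison: 3 were higher, beside 16.8% of all genes, and 1 was lower, beside 12.7%. The median log2 fold change of the 10 genes was 0.01, against -0.02 over all genes. Gclc (0.04), Gclm (0.20) and Nqo1 (-0.34) did not pass the test. Over all genes the 4610 calls became 2750, 2866, 2960 and 3034 without HFD contralateral replicate 3, HFD peritumoral replicate 4, and HFD contralateral replicates 2 and 1, and 6425 without HFD peritumoral replicate 1.

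Hmox1, on chr8:75093591-75100596 of mm10, encodes the inducible heme oxygenase, which cuts heme into biliverdin, iron and carbon monoxide. It had 211, 303, 478 and 544 CPM in the 4 HFD peritumoral libraries, against 34.4, 31.5, 51.4 and 66.7 CPM in HFD contralateral and 27.9, 24.4, 25.1 and 26.6 CPM in HFD no-tumor libraries. Every HFD peritumoral library exceeded every other library of that diet. The log2 fold change was 3.07 ± 0.34 against contralateral fat (8.4-fold, adjusted p = 0.00079) and 3.90 ± 0.29 against no-tumor fat (14.9-fold, adjusted p = 3.53e-05).

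In Chow mice Hmox1 had 24.1, 30.9, 195 and 113 CPM in peritumoral libraries, against 22.2, 22.4, 25.7 and 24 CPM in contralateral and 39.8, 18.5, 34.6 and 29.5 CPM in no-tumor libraries. Replicates 3 and 4 of the Chow peritumoral group were high, and replicates 1 and 2 lay within or close to the range of the other Chow libraries. The log2 fold changes were 1.96 against contralateral fat (adjusted p = 0.566) and 1.61 against no-tumor fat (adjusted p = 0.302), and neither passed.

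General macrophage markers moved with Hmox1. The 8 markers, among them Adgre1, Cd68 and Csf1r, summed to 1900, 1800, 2600 and 2360 CPM in HFD peritumoral libraries, 952 to 1150 CPM in HFD contralateral and 678 to 862 CPM in HFD no-tumor libraries. All 8 were called higher in HFD peritumoral fat against contralateral fat (edgeR, adjusted over all genes). In Chow peritumoral fat they summed to 863, 1150, 1540 and 1430 CPM, so that replicates 3 and 4, with the most Hmox1, also had the most macrophage marker RNA. None of the 8 markers was at 0 in any group. A separate list of 7 lipid-associated macrophage markers had 2 called higher (Trem2 at 1.48 and Spp1 at 3.81) and 1 lower against HFD contralateral fat. Its sum was lower, at 2070 to 3530 CPM in HFD peritumoral, 4000 to 5230 CPM in HFD contralateral and 3720 to 4860 CPM in HFD no-tumor libraries. Most of that sum was Lpl, the lipoprotein lipase gene, which adipocytes also express and which was the lower one (-0.85 ± 0.20, adjusted p = 0.0153). Neutrophil markers summed to 36.1 to 88.6 CPM in HFD peritumoral fat and 11.1 to 27.3 CPM in HFD contralateral fat, and the 3 proliferation markers to 145 to 417 CPM in HFD peritumoral fat and 40.9 to 80.9 CPM in HFD contralateral fat. The 8 adipocyte markers summed to 7200 to 13300 CPM in HFD peritumoral fat and 14900 to 17400 CPM in HFD contralateral fat, and 7 of them were called lower. In HFD peritumoral replicates 1 to 4, proliferation markers summed to 145, 417, 254 and 320 CPM. Adipocyte markers there summed to 13300, 7200, 9530 and 9750 CPM. The part of cell types and proliferation in the position differences of Hmox1, Srxn1, Txnrd1 and Sod1, or in their diet interactions, was not tested.

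**Figure D1:**
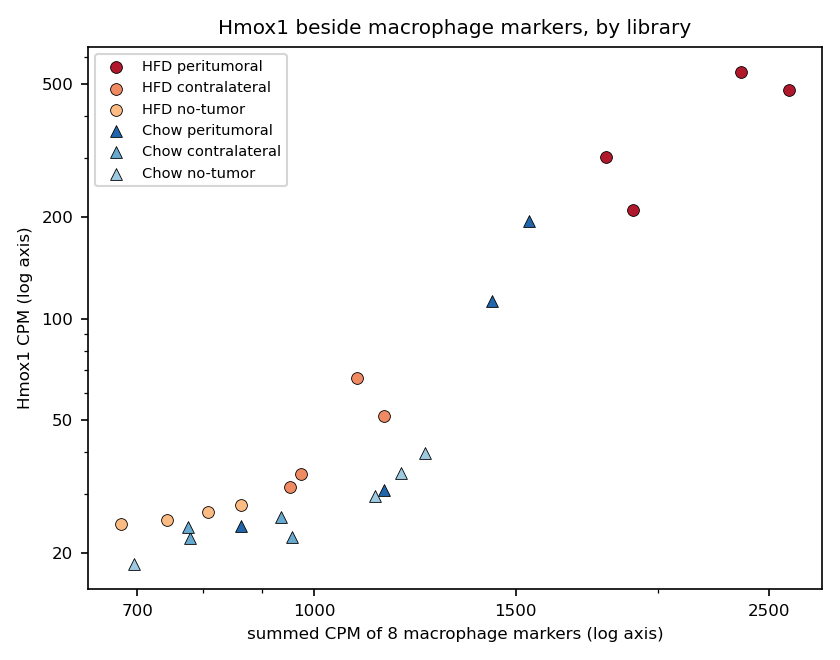
Hmox1 CPM (vertical, log axis) against the summed CPM of 8 macrophage markers (horizontal, log axis) for each of the 24 libraries, HFD as circles and Chow as triangles. The 4 HFD peritumoral libraries lie at 211 to 544 CPM of Hmox1 and 1800 to 2600 CPM of markers, and Chow peritumoral replicates 3 and 4 (195 and 113 CPM of Hmox1) come next.

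Srxn1, on chr2:152105516-152111376, encodes sulfiredoxin, which restores overoxidized peroxiredoxins. It had 28.6, 48.5, 34.3 and 43.5 CPM in HFD peritumoral libraries, against 20.1, 22.6, 20.7 and 22.1 CPM in HFD contralateral and 18, 17.3, 18.8 and 20.2 CPM in HFD no-tumor libraries. No HFD peritumoral library overlapped the other HFD groups. It rose by 0.86 ± 0.16 against contralateral fat (adjusted p = 0.00529) and by 1.07 ± 0.15 against no-tumor fat (adjusted p = 0.000885), on the log2 scale.

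Txnrd1, on chr10:82859206-82897724, encodes cytosolic thioredoxin reductase, which keeps thioredoxin reduced at the expense of NADPH. It had 65.8, 110, 86.9 and 98.5 CPM in HFD peritumoral libraries, against 56.2, 59, 55.1 and 62.1 CPM in HFD contralateral and 46.8, 47.6, 48.9 and 49.8 CPM in HFD no-tumor libraries. The 3 HFD groups did not overlap and were ordered by nearness to the tumor. Txnrd1 rose by 0.65 ± 0.14 against contralateral fat (adjusted p = 0.0112) and by 0.92 ± 0.14 against no-tumor fat (adjusted p = 0.00106).

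In Chow mice neither gene passed by position next to the tumor. Srxn1 had 15.3, 19.2, 20.2 and 21.2 CPM in Chow peritumoral fat, 16.7, 17.3, 15.8 and 13.9 CPM in Chow contralateral fat and 22.8, 21.3, 19.4 and 20.4 CPM in Chow no-tumor fat. Txnrd1 had 48.2, 50, 60.5 and 68.7 CPM in Chow peritumoral fat, 46.7, 52.1, 44.2 and 46 CPM in Chow contralateral fat and 47.1, 47.8, 50.2 and 61.3 CPM in Chow no-tumor fat. The Chow peritumoral range of both genes overlapped those of the other Chow groups.

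**Figure D2:**
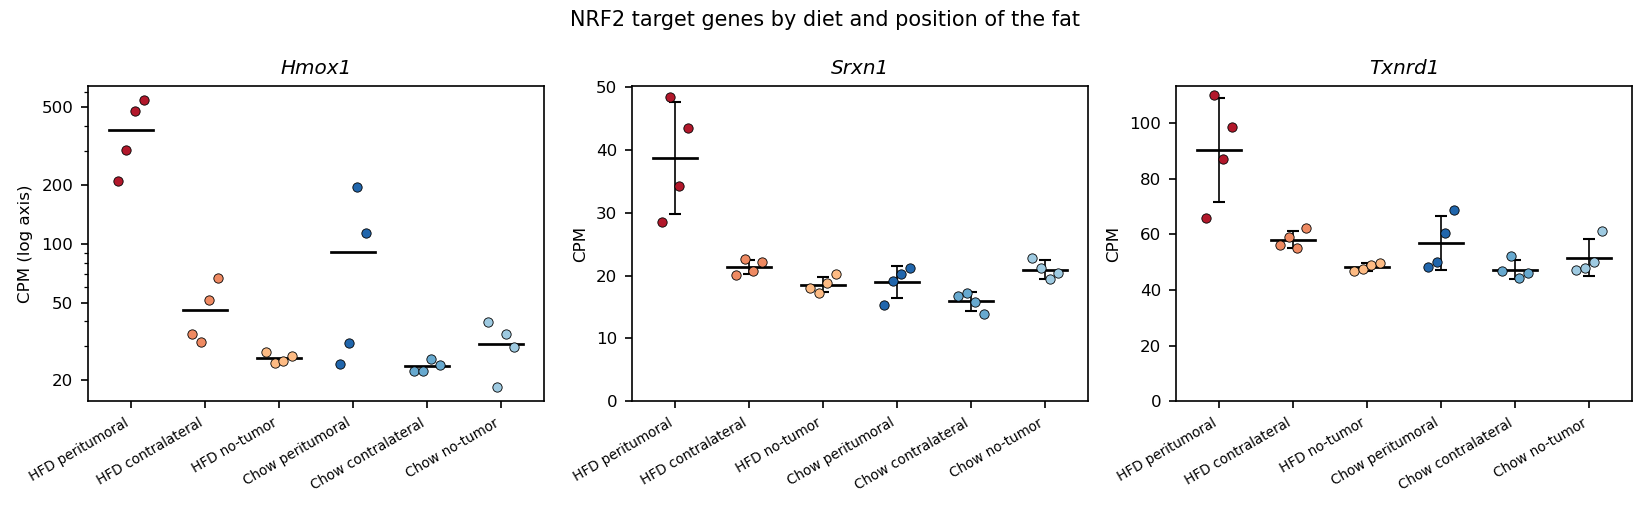
CPM of Hmox1 (log axis), Srxn1 and Txnrd1 (linear axes from 0) in each of the 4 libraries of each group, with the group mean as a line and, on the linear axes, the SD as a bar. The HFD peritumoral libraries stand above the other HFD groups in all 3 genes, and Chow peritumoral fat is split for Hmox1 (24.1 to 195 CPM).

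No gene of the whole table was called between peritumoral and contralateral fat on Chow (edgeR, 0% of genes), and 2 of the 10 genes had an unadjusted p under 0.05. DESeq2 called 19 genes there and none of the 10. Against no-tumor fat on Chow 0.132% of genes were called (0.0628% higher, 0.0691% lower) and none of the 10, again with 2 at an unadjusted p under 0.05, and DESeq2 called none of the 10 either. In HFD peritumoral against HFD no-tumor fat, 3 of 10 genes were called, all higher, beside 40.9% of all genes (23% higher, 17.9% lower). Those 3 were Hmox1, Srxn1 and Txnrd1. The median of the 10 genes was 0.10 there, against -0.01 over all genes. Calls were gained there for Sod1 without HFD peritumoral replicate 1 (-0.30, adjusted p = 0.00446) and for Sod3 without replicate 2 (0.26, adjusted p = 0.0147).

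Whether the peritumoral difference was larger on HFD was tested as an interaction. Set against contralateral fat it was 0.64 for Srxn1 (adjusted p = 0.13), 0.41 for Txnrd1 (adjusted p = 0.256) and 1.16 for Hmox1 (adjusted p = 0.421), and edgeR called none of the 10 genes, with 2 at an unadjusted p under 0.05, beside 0% of all genes. DESeq2 called none of the 10 either, limma voom with quality weights called 4, and leaving out HFD peritumoral replicate 1 gave 3 calls (Srxn1 0.77, Txnrd1 0.54 and Sod1 -0.50), as the calls over all genes went to 1911 of 16996 genes. Set against no-tumor fat, the peritumoral difference was larger on HFD by 1.17 ± 0.20 for Srxn1 (adjusted p = 0.00207) and 0.72 ± 0.20 for Txnrd1 (adjusted p = 0.0211), which were 2 calls of 10 beside 20.6% of all genes (9.75% positive, 10.9% negative). For Hmox1 it was 2.27 (adjusted p = 0.0548). It passed on leaving out Chow peritumoral replicate 3 (2.98, adjusted p = 0.0104), Chow peritumoral replicate 4 (2.45, adjusted p = 0.0455), Chow no-tumor replicate 2 (2.50, adjusted p = 0.0473) or HFD peritumoral replicate 1 (2.48, adjusted p = 0.0403). Sod3 had 0.48 (adjusted p = 0.0623) and passed at 0.60 (adjusted p = 0.0198) and 0.54 (adjusted p = 0.0444) on dropping Chow peritumoral replicates 3 and 4 in turn. It also passed on dropping Chow no-tumor replicate 2 (0.57, adjusted p = 0.0369) and HFD peritumoral replicate 2 (0.57, adjusted p = 0.0233). Gclc had -0.35 (adjusted p = 0.113) and passed without HFD no-tumor replicate 4 (-0.43, adjusted p = 0.0497).

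As a description planned for all 10 genes, promoter windows were searched for the letters of the antioxidant response element, TGACNNNGC, on both strands. RefSeq (GRCm38.p6) had no window for Hmox1, Gclc or Sod3, which were therefore not searched. It gave 9 windows for 7 of the 10 genes, each 300 bases long, running from 250 bases before the gene start to 50 after it. Of these, 4 held the letters (Gclm, Srxn1, 1 of the 3 Txnrd1 windows, and Sod1), as did 12.4% of the 32851 windows of all genes. A variant spelled TGAGNNNGC, added after the windows were seen, matched 2 times in Srxn1 and in none of the other 8 windows, and occurred in 17.6% of all windows. No match overlapped another. The windows of Srxn1 (chr2:152105274-152105573) and Txnrd1 (chr10:82858956-82859255), which moved, and of Gclm (chr3:122245307-122245606), which holds the letters but was called in none of the 12 edgeR comparisons, are shown on the plus strand with both spellings in capitals. A match of letters is a description and not a site shown to be bound.
Srxn1: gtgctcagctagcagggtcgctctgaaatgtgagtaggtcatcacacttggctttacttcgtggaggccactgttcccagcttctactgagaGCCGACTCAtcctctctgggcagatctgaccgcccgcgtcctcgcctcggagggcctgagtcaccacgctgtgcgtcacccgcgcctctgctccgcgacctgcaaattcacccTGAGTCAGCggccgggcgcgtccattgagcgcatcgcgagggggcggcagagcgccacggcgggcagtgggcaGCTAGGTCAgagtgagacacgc
Txnrd1: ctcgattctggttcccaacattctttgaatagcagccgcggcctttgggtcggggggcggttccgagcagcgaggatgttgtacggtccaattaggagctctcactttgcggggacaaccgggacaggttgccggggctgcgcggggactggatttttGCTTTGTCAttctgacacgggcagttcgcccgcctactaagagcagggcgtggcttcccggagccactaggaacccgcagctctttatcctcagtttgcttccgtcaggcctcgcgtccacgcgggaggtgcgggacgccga
Gclm: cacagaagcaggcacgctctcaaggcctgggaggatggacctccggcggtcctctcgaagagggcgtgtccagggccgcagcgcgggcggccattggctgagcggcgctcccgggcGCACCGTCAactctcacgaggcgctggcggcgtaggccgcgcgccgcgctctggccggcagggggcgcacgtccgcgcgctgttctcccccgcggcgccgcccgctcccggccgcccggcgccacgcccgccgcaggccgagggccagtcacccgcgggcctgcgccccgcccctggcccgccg

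The TGACNNNGC match lay 29 bases after the RefSeq start in Srxn1, 92 bases before it in Txnrd1 and 134 bases before it in Gclm, each reading TGAC on the minus strand. The TGAGNNNGC matches of Srxn1 lay 158 and 45 bases before the start. Gclm, with 1 match, and Srxn1, with 3 of both spellings, thus both carry the letters. Gclm passed in 1 fit, limma voom with quality weights for HFD peritumoral against contralateral fat (0.33, adjusted p = 0.032).

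Glutathione synthesis split by subunit. Gclc, on chr9:77754535-77794485, encodes the catalytic subunit of glutamate-cysteine ligase, the rate-limiting enzyme of glutathione synthesis, and Gclm, on chr3:122245557-122269984, encodes its modifier subunit. Gclc fell with diet at every position: its 12 HFD libraries lay between 37.2 and 52.4 CPM, against 71.9 to 94.1 CPM in the 12 Chow libraries. No HFD library reached the lowest Chow library.

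By position, Gclc had 40, 40.7, 47.9 and 40.1 CPM in HFD peritumoral against 90.5, 76.1, 72.7 and 94.1 CPM in Chow peritumoral libraries. In contralateral fat it had 38.5, 44.5, 39.1 and 43.2 CPM on HFD against 86.7, 84.4, 80 and 87.5 CPM on Chow. No-tumor fat had 43.5, 52.4, 49.8 and 37.2 CPM on HFD against 71.9, 74.5, 72.1 and 74.8 CPM on Chow. The log2 fold change of HFD against Chow was -1.02 ± 0.12 in peritumoral fat (adjusted p = 0.000531), -1.07 ± 0.06 in contralateral fat (adjusted p = 7.31e-07) and -0.67 ± 0.09 in no-tumor fat (adjusted p = 0.000318). These calls held under all 16 alternatives at each position.

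Gclm did not follow its partner. Its group means were 36.3 ± 7.04, 31.8 ± 2.59 and 33.3 ± 4.11 CPM in HFD peritumoral, contralateral and no-tumor fat, and 36.1 ± 8.59, 30 ± 2.26 and 30.7 ± 5.12 CPM in the same positions on Chow (SD, n = 4 each). The log2 fold changes of HFD against Chow were -0.03, 0.05 and 0.13 in peritumoral, contralateral and no-tumor fat (adjusted p = 0.921, 0.652 and 0.515). An antisense gene that overlaps Gclm had 223 counts over the 24 libraries against 12090 for Gclm, and the strand setting of the counting was not given in the sources used here.

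Nqo1, on chr8:107388225-107403206, encodes a quinone reductase and is a widely used readout of NRF2 activity. It lay between 2.48 and 5.14 CPM in HFD and between 2.46 and 5.39 CPM in Chow libraries. The lowest group mean was in HFD peritumoral fat (3.44 ± 0.787 CPM), where Hmox1 was highest, and the highest in HFD no-tumor fat (4.5 ± 0.471 CPM; SD, n = 4 each). It was called in none of the 12 comparisons. It had 21 to 84 counts a library, and the standard errors of its log2 fold changes ran from 0.13 to 0.29. Whether depth limited its calls was not tested.

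**Figure D3:**
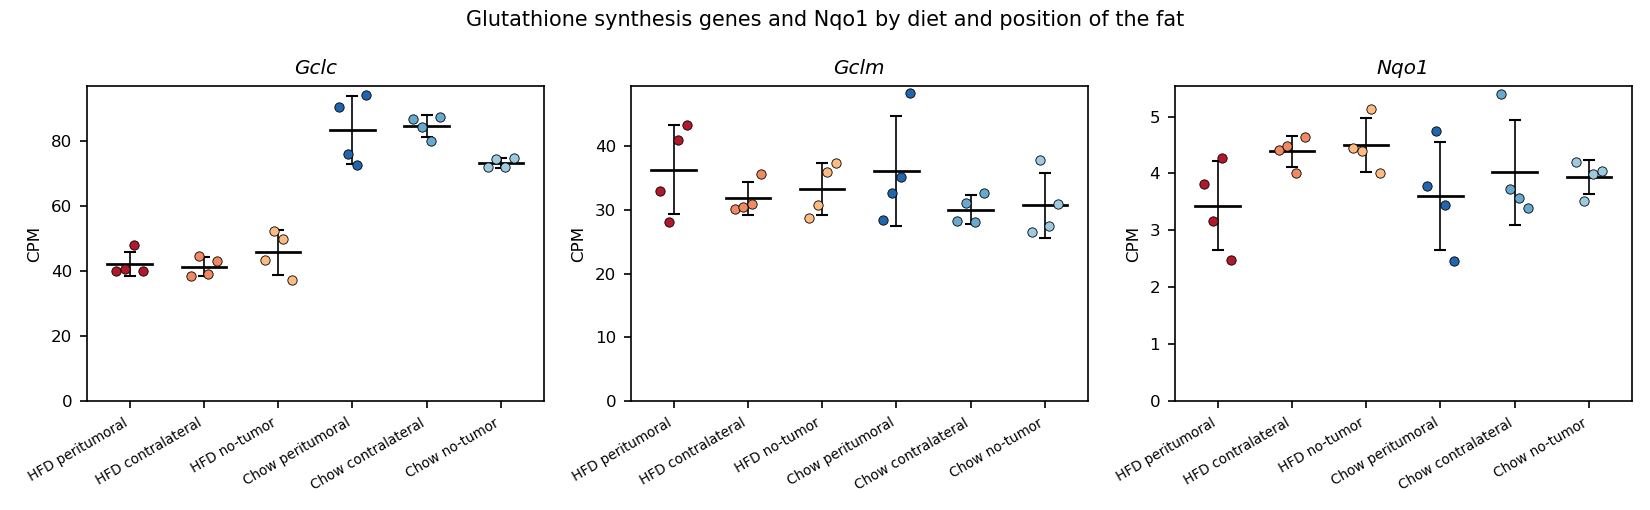
CPM of Gclc, Gclm and Nqo1 (linear axes from 0) in each of the 4 libraries of each group, with the mean as a line and the SD as a bar. The 12 HFD libraries of Gclc (37.2 to 52.4 CPM) lie below the 12 Chow libraries (71.9 to 94.1 CPM), while those of Gclm and Nqo1 overlap.

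Of the superoxide dismutases, the extracellular enzyme was higher on HFD at all 3 positions, the mitochondrial enzyme was called higher at 2 positions, and the cytosolic enzyme was called lower in no-tumor fat. Sod3, on chr5:52363946-52371405, encodes the secreted enzyme bound to the extracellular matrix. It had 378, 282, 384 and 384 CPM in HFD peritumoral against 71.5, 88.8, 113 and 92 CPM in Chow peritumoral libraries. Contralateral fat had 364, 433, 412 and 602 CPM on HFD against 76.4, 88.8, 104 and 78.9 CPM on Chow. In no-tumor fat the values were 305, 336, 326 and 328 CPM on HFD and 137, 108, 112 and 119 CPM on Chow.

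The lowest HFD library of Sod3 exceeded the highest Chow library. The log2 fold change of HFD against Chow was 1.92 ± 0.16 in peritumoral fat (3.8-fold, adjusted p = 0.000151), 2.34 ± 0.16 in contralateral fat (5.07-fold, adjusted p = 9.48e-06) and 1.46 ± 0.08 in no-tumor fat (2.75-fold, adjusted p = 2.79e-07). Within HFD, position did not pass for Sod3: -0.34 for peritumoral against contralateral fat (adjusted p = 0.145) and 0.46 for contralateral against no-tumor fat (adjusted p = 0.0749). The last value passed without HFD contralateral replicate 1 (0.55, adjusted p = 0.0314) or 4 (0.29, adjusted p = 0.0142).

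Sod2, on chr17:13007839-13018119, encodes the mitochondrial manganese enzyme. It had 109, 89.8, 93.2 and 89.4 CPM in HFD peritumoral against 58.4, 65.4, 70.5 and 83.9 CPM in Chow peritumoral libraries, and 97.2, 97.8, 88.9 and 102 CPM in HFD contralateral against 72.2, 59.8, 66 and 65.9 CPM in Chow contralateral libraries. The diets did not overlap at either position. The log2 fold change was 0.51 ± 0.06 in contralateral fat (adjusted p = 7.48e-05) and 0.41 ± 0.13 in peritumoral fat (adjusted p = 0.0295). The peritumoral call did not hold when any of 5 libraries was left out. Without HFD peritumoral replicates 1 and 3 in turn the fold changes were 0.35 (adjusted p = 0.0522) and 0.42 (adjusted p = 0.0535). Without Chow peritumoral replicates 1, 2 and 3 in turn they were 0.33 (adjusted p = 0.0852), 0.38 (adjusted p = 0.0783) and 0.41 (adjusted p = 0.0533).

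In no-tumor fat Sod2 had 89.5, 102, 101 and 108 CPM on HFD and 73.1, 108, 79.3 and 69.9 CPM on Chow. Chow replicate 2 lay with the HFD libraries, and the fold change of 0.29 did not pass (adjusted p = 0.169). Without that library it was 0.45 (adjusted p = 0.000277).

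Sod1, on chr16:90220742-90226322, encodes the cytosolic copper-zinc enzyme. It had 86.6, 61.4, 66.6 and 60.8 CPM in HFD peritumoral, 101, 94.1, 99.6 and 83.5 CPM in HFD contralateral and 79, 74.2, 78.8 and 82 CPM in HFD no-tumor libraries. On Chow it had 83, 88.9, 76.5 and 79.6 CPM in peritumoral, 89.9, 84.6, 85.7 and 78.4 CPM in contralateral and 90.2, 113, 94.7 and 97.1 CPM in no-tumor libraries. Replicate 1 was the high library of the HFD peritumoral group. Sod1 was lower on HFD in no-tumor fat by a log2 fold change of -0.32 ± 0.08 (adjusted p = 0.00962), with no overlap between the diets.

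In HFD mice Sod1 was lower in peritumoral than in contralateral fat, at -0.45 ± 0.12 (adjusted p = 0.0207). That call also turned on single libraries. Leaving out HFD peritumoral replicates 3 and 4 in turn gave -0.43 (adjusted p = 0.052) and -0.40 (adjusted p = 0.0592). Leaving out HFD contralateral replicates 1, 2 and 3 in turn gave -0.41 (adjusted p = 0.0634), -0.45 (adjusted p = 0.0547) and -0.42 (adjusted p = 0.0632). Between diets in peritumoral fat Sod1 differed by -0.29 (adjusted p = 0.0849), and without HFD peritumoral replicate 1 by -0.41 (adjusted p = 0.00856). In contralateral fat the diet difference was 0.12 (adjusted p = 0.167), and without HFD contralateral replicate 4 it was 0.18 (adjusted p = 0.0213).

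Gpx3, on chr11:54902453-54910377, encodes the secreted glutathione peroxidase. It had 382, 192, 457 and 185 CPM in HFD peritumoral against 972, 894, 677 and 508 CPM in Chow peritumoral libraries. In contralateral fat it had 390, 374, 543 and 227 CPM on HFD against 1070, 903, 823 and 633 CPM on Chow. No-tumor fat had 462, 154, 250 and 316 CPM on HFD against 1580, 646, 1080 and 1500 CPM on Chow.

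Within each position every HFD library of Gpx3 lay below every Chow library, although the libraries of a group spread widely. Gpx3 fell by 2.01 ± 0.42 on the log2 scale in HFD no-tumor fat (adjusted p = 0.0148), by 1.20 ± 0.27 in HFD contralateral fat (adjusted p = 0.00693) and by 1.36 ± 0.32 in HFD peritumoral fat (adjusted p = 0.0122). It was called in none of the comparisons by position on either diet.

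**Figure D4:**
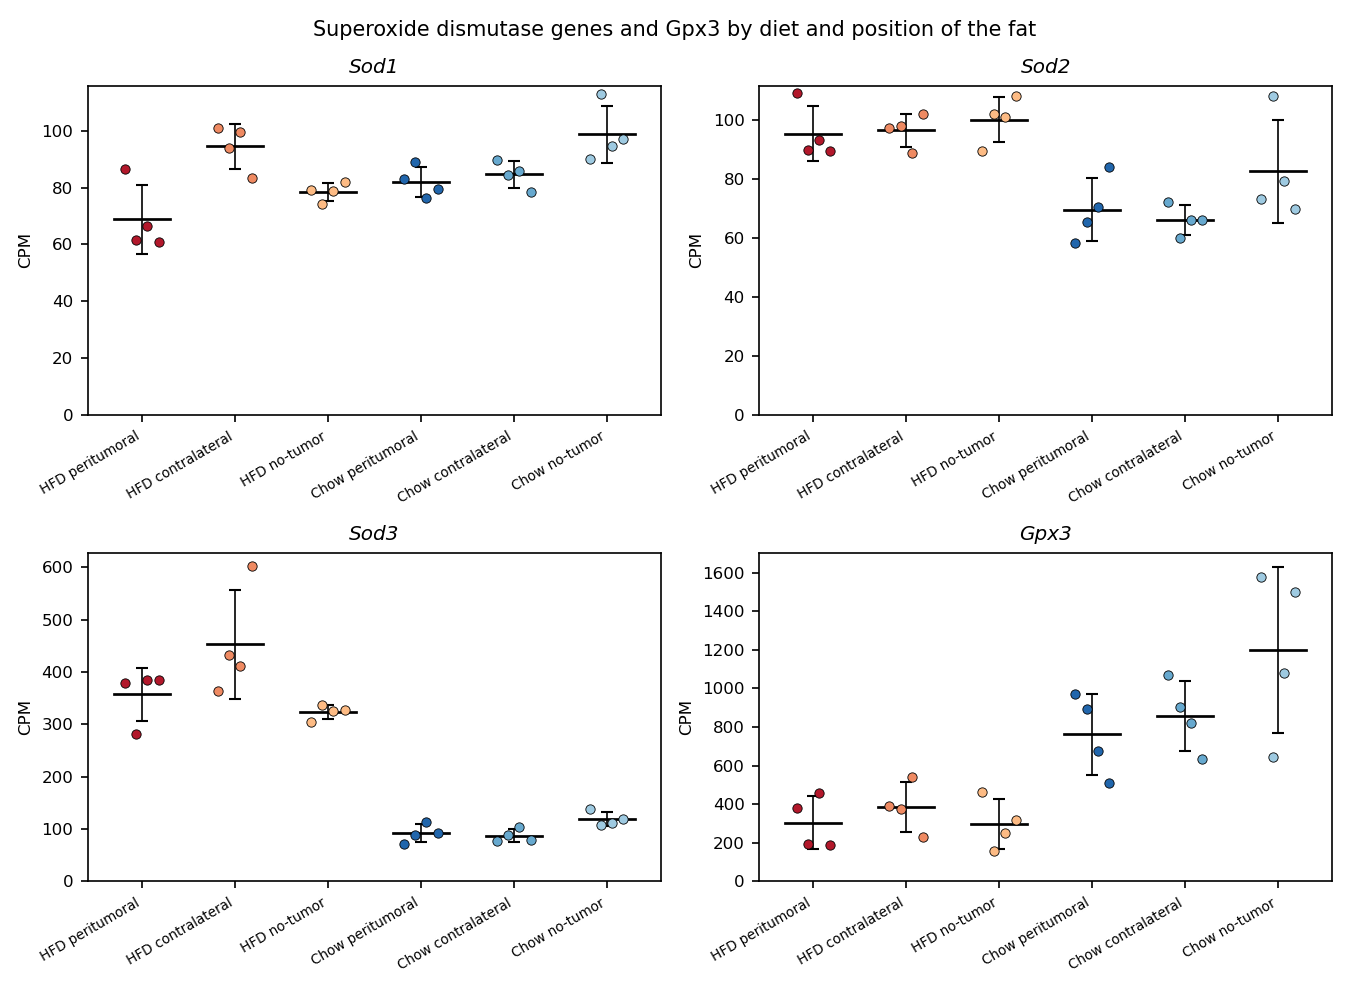
CPM of Sod1, Sod2, Sod3 and Gpx3 (linear axes from 0) in each of the 4 libraries of each group, with the mean as a line and the SD as a bar. Sod3 is high in all 12 HFD libraries (282 to 602 CPM) and Gpx3 in the 12 Chow libraries (508 to 1580 CPM), while Sod1 keeps group means between 68.8 and 98.7 CPM.

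Counted by diet, 4 of the 10 genes were called in no-tumor fat, 1 higher on HFD and 3 lower, beside 24.9% of all genes (13.6% higher, 11.3% lower). In contralateral fat 7 were called, 5 higher and 2 lower, beside 49.3% of all genes (24.5% higher, 24.8% lower). In peritumoral fat 6 were called, 4 higher and 2 lower, beside 33.6% of all genes (16.4% higher, 17.2% lower). The 5353 calls over all genes there became 3102 without Chow peritumoral replicate 1. The median log2 fold change of the 10 genes was -0.13, 0.19 and 0.19 in no-tumor, contralateral and peritumoral fat, against -0.02, -0.01 and 0.02 over all genes. Gclc and Gpx3 fell and Sod3 rose at all 3 positions. Srxn1 and Txnrd1 were called by diet in peritumoral and contralateral fat but not in no-tumor fat.

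Srxn1 was higher on HFD by 0.99 ± 0.17 in peritumoral fat (adjusted p = 0.00296) and 0.39 ± 0.08 in contralateral fat (adjusted p = 0.00247), and differed by -0.17 in no-tumor fat (adjusted p = 0.154). Txnrd1 was higher by 0.63 ± 0.17 in peritumoral fat (adjusted p = 0.0191) and 0.26 ± 0.07 in contralateral fat (adjusted p = 0.00686), and differed by -0.08 in no-tumor fat (adjusted p = 0.489). For Txnrd1 beside the tumor, dropping Chow peritumoral replicate 1 gave 0.55 (adjusted p = 0.0631) and dropping replicate 2 gave 0.57 (adjusted p = 0.0556), so that either ended the call. These 2 Chow libraries were the lower pair of their group, at 48.2 and 50 CPM.

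Hmox1 was higher on HFD in contralateral fat by 0.92 ± 0.24 (adjusted p = 0.0129), where the lowest HFD library (31.5 CPM) exceeded the highest Chow library (25.7 CPM). In no-tumor fat it differed by -0.22 (adjusted p = 0.463). Without Chow no-tumor replicate 2, the lowest of its group for Hmox1 (18.5 CPM), it differed by -0.39 (adjusted p = 0.00447). In peritumoral fat the difference of 2.03 ± 0.71 did not pass (adjusted p = 0.0603), although every HFD library (211 to 544 CPM) exceeded every Chow library (24.1 to 195 CPM). It passed without Chow peritumoral replicate 3 (2.74, adjusted p = 0.0205) and with DESeq2 (2.04, adjusted p = 0.0136).

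Markers of several cell types moved with diet. Over all genes, 24.5% were called higher on HFD in contralateral fat, 13.6% in no-tumor fat and 16.4% in peritumoral fat. Lower were 24.8%, 11.3% and 17.2% in the same order. Of 8 adipocyte markers, 7 were called higher on HFD in contralateral fat, 4 in no-tumor fat and 1 in peritumoral fat. They summed to 14900 to 17400 CPM in HFD contralateral against 7580 to 8760 CPM in Chow contralateral libraries. Of 6 mammary epithelium markers, 6 were lower on HFD in contralateral fat, 5 in peritumoral fat and 3 in no-tumor fat, with sums of 187 to 250 CPM in HFD contralateral against 414 to 463 CPM in Chow contralateral libraries. Endothelial markers were higher on HFD in no-tumor fat for 5 of 6, and 1 of 6 was lower in contralateral and in peritumoral fat. Muscle markers were lower on HFD for 4 of 5 in contralateral fat. Of 8 macrophage markers, 5 were higher on HFD in peritumoral fat, 3 in contralateral fat and none in no-tumor fat. Of 7 lipid-associated macrophage markers, 5, 5 and 4 were higher in the same order, and 1 was lower in contralateral fat. Neutrophil markers were higher for 3 of 3 tested in peritumoral and 2 of 3 in contralateral fat, and split in no-tumor fat. Fibroblast markers were lower for 3 of 6 in no-tumor fat and higher for 1 of 6 in peritumoral fat. The part of these cell types in the diet differences of Gclc, Sod2, Sod3, Gpx3 and the other genes was not tested. With the mitochondrial ribosomal RNA and the ribosomal-repeat gene Gm42418 taken out of the library sizes, the counts of the 10 genes called by diet were 4, 7 and 6 in no-tumor, contralateral and peritumoral fat, the same as with them.

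**Figure D5:**
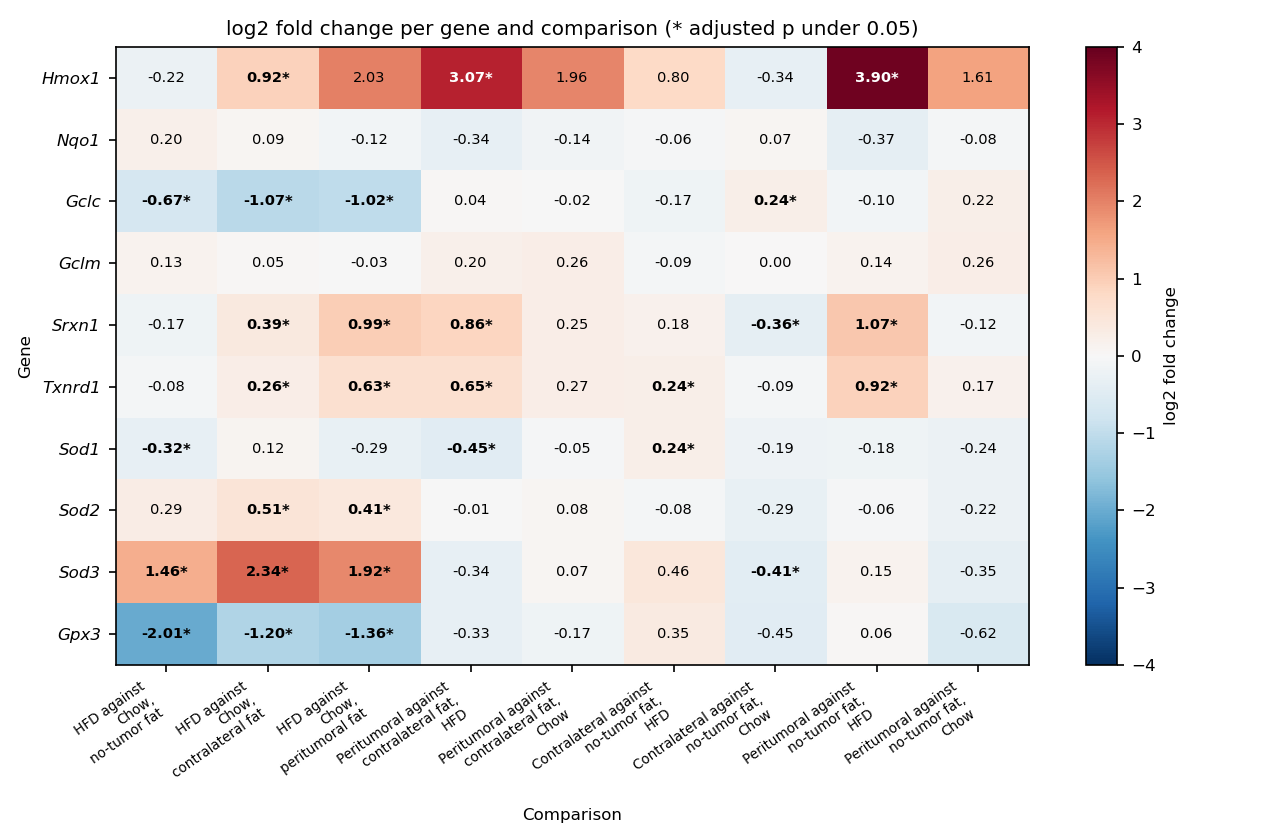
Log2 fold change of each of the 10 genes (rows) in the 9 comparisons of 2 groups (columns), with red for higher in the first-named group and an asterisk for an adjusted p under 0.05 in edgeR's quasi-likelihood test. Gclc, Sod3 and Gpx3 carry asterisks in all 3 diet columns, Hmox1 has the largest value (3.90, HFD peritumoral against no-tumor fat), and Nqo1 and Gclm carry none.

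On HFD, fewer genes were called for fat distant from the tumor than for fat beside it. In HFD contralateral against HFD no-tumor fat 2 of 10 genes were called, both higher, beside 6.08% of all genes (2.72% higher, 3.37% lower), and the median of the 10 was 0.21 against 0.01 over all genes. Txnrd1 was higher by 0.24 ± 0.05 (adjusted p = 0.0231) and Sod1 by 0.24 ± 0.07 (adjusted p = 0.0466), with no overlap between the groups in either gene. Both calls were lost on leaving out HFD no-tumor replicate 1, 2 or 3: Txnrd1 then had adjusted p = 0.0617, 0.0658 and 0.0644, and Sod1 0.0882, 0.127 and 0.111. Txnrd1 also lost its call without HFD contralateral replicate 2 (adjusted p = 0.0551), and Sod1 without HFD no-tumor replicate 4 (0.0652) or HFD contralateral replicate 1 (0.116), 2 (0.0861) or 3 (0.127). Hmox1 differed by 0.80 (adjusted p = 0.0951), again without overlap, and passed without HFD contralateral replicate 2 (0.94, adjusted p = 0.0481).

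On Chow the numbers of calls had the other order, with more for distant fat than for peritumoral fat, each against no-tumor fat. Between Chow peritumoral and Chow contralateral fat themselves edgeR called 0 genes. Against no-tumor fat, Chow peritumoral fat had log2 fold changes of 0.22 for Gclc, -0.12 for Srxn1 and -0.35 for Sod3, none of them called. In Chow contralateral against Chow no-tumor fat 3 of 10 genes were called, 1 higher and 2 lower, beside 7.95% of all genes (4.93% higher, 3.02% lower), and the median of the 10 was -0.24 against -0.01. Gclc was higher by 0.24 ± 0.06 (adjusted p = 0.027), Srxn1 lower at -0.36 ± 0.09 (adjusted p = 0.0337) and Sod3 lower at -0.41 ± 0.10 (adjusted p = 0.0342), with no overlap in any of the 3. Leaving out Chow no-tumor replicate 1, 3 or 4, or Chow contralateral replicate 1 or 4, ended all 3 calls, at adjusted p-values of 0.0553 to 0.0898. Leaving out Chow contralateral replicate 2 ended those of Gclc (0.0622) and Sod3 (0.0666), and leaving out replicate 3 that of Srxn1 (0.0731). Hmox1 differed by -0.34 (adjusted p = 0.297) and passed without Chow no-tumor replicate 2 (-0.51, adjusted p = 0.0093). Muscle markers were 74.9 to 4720 CPM in Chow contralateral and 16.1 to 978 CPM in Chow no-tumor libraries, and their part was not tested.

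The difference between contralateral and no-tumor fat itself differed between diets for 6 of the 10 genes (5 more positive on HFD, 1 more negative), beside 19.9% of all genes (9.94% in each direction), with a median of 0.40 against 0.01 over all genes. The interaction was 0.89 ± 0.18 for Sod3 (adjusted p = 0.00461), 0.56 ± 0.11 for Srxn1 (adjusted p = 0.00336) and 0.45 ± 0.10 for Sod1 (adjusted p = 0.00799). It was -0.40 ± 0.12 for Gclc (adjusted p = 0.0255), 0.35 ± 0.11 for Txnrd1 (adjusted p = 0.0325) and 1.15 ± 0.33 for Hmox1 (adjusted p = 0.0276). The calls of Sod1 and Sod3 held in all 24 alternatives, those of Gclc and Srxn1 in 23, that of Hmox1 in 15 and that of Txnrd1 in 13. Hmox1 lost its call without HFD no-tumor replicate 2 (adjusted p = 0.0532) or 3 (0.05), HFD contralateral replicate 3 (0.0526), Chow no-tumor replicate 1 (0.0566) or 3 (0.0517), or Chow contralateral replicate 1 (0.0532) or 4 (0.0512). For Txnrd1 the libraries that ended it were HFD no-tumor replicates 1 (adjusted p = 0.0682), 2 (0.0605) and 3 (0.0529), HFD contralateral replicates 2 (0.0515) and 4 (0.0586), Chow no-tumor replicate 4 (0.0544) and Chow contralateral replicates 1 (0.0619), 3 (0.0696) and 4 (0.0623). In the same interaction 5 of 8 macrophage and 5 of 8 adipocyte markers were called more positive on HFD, beside 9.94% of all genes. Of 6 endothelial markers, 5 were called more negative, beside 9.94%. The part of these cell types, of muscle and of depth in the 6 calls was not tested.

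Over the 24 libraries, the 3 genes raised in HFD peritumoral fat varied together in log2 CPM: Pearson's r was 0.92 for Srxn1 with Txnrd1, 0.90 for Hmox1 with Txnrd1 and 0.85 for Hmox1 with Srxn1. The diet genes formed another pattern, with r = -0.95 for Gclc with Sod3, -0.76 for Sod3 with Gpx3 and 0.80 for Sod2 with Sod3. Gclc and Gclm, subunits of 1 enzyme, had r = -0.11. Both sets were grouped by their levels in these same libraries, so the r values are no separate support for them. Libraries of a group share diet and position, so the values describe the groups and do not show whether genes vary together within a group.

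Among 11175 genes with a mean of at least 5 CPM, the genes most like Hmox1 over the 24 libraries were Lgmn (r = 0.98), Ednrb (0.979) and C3ar1 (0.971). Lgmn, a lysosomal protease gene, averaged 411 ± 64.5 CPM in HFD peritumoral fat and 128 ± 20 CPM in HFD contralateral fat (SD, n = 4 each). Eif5a (0.969), Aars (0.962) and Esd (0.959) were most like Srxn1, and Odc1 (0.965), Pabpc1 (0.962) and Mcm3 (0.955) most like Txnrd1. Sod3 was closest to Pam and Sparc (both 0.986) and Gpx3 to Spon1 (0.961). For Gclc the closest were Hnrnph1 (0.954), Trp53bp1 (0.939) and the nuclear RNA Malat1 (0.938). Sod1 was closest to Ccni (0.932), Sod2 to Hist1h2bc (0.922), Nqo1 to Klhl22 (0.854, among 11176 genes) and Gclm to Lipo3 (0.776).

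Nfe2l2 and Bach1 were both higher beside the tumor on HFD. Nfe2l2, encoding NRF2 itself, had 91, 100, 102 and 95.9 CPM in HFD peritumoral libraries, against 79, 85.1, 86.9 and 83 CPM in HFD contralateral libraries. It was higher by 0.23 ± 0.07 (adjusted p = 0.0309), with no overlap. On HFD it was lower than on Chow in no-tumor fat (-0.19 ± 0.06, adjusted p = 0.0239) and contralateral fat (-0.16 ± 0.05, adjusted p = 0.0214). Bach1, whose product competes for the same elements, had 60.7, 91.2, 70.8 and 79.8 CPM in HFD peritumoral libraries. It had 46.3, 47.7, 51.8 and 45.8 CPM in HFD contralateral libraries, against which it rose by 0.67 ± 0.12 (adjusted p = 0.00529). Of the 9 regulators tested there, 2 were higher and 1 lower (16.8% and 12.7% of all genes), the lower being Nfe2l1, which encodes the related factor NRF1 (-0.43 ± 0.10, adjusted p = 0.0157).

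Other NRF2 target genes went both ways beside the tumor on HFD. Against contralateral fat 9 of 24 tested were higher and 7 lower, beside 16.8% and 12.7% of all genes, with a median of -0.02, the same as over all genes. Akr1b8, an aldo-keto reductase, had 30.6, 48.5, 46 and 50.7 CPM in HFD peritumoral fat and 21.2, 16.7, 19.5 and 17.7 CPM in HFD contralateral fat, a rise of 1.24 ± 0.16 (adjusted p = 0.00131). Gsr, glutathione reductase, rose by 0.77 ± 0.12 (adjusted p = 0.00318). Ephx1, the microsomal epoxide hydrolase, was lower at -0.43 ± 0.11 (adjusted p = 0.0186), and the glutathione transferase Gstm1 at -0.60 ± 0.16 (adjusted p = 0.0201).

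Between diets, 10 of 24 other targets were higher and 3 lower in peritumoral fat, beside 16.4% and 17.2% of all genes. In contralateral fat 11 of 24 were higher and 2 lower, beside 24.5% and 24.8%, and in no-tumor fat 5 of 23 were higher and 3 lower, beside 13.6% and 11.3%. In peritumoral, contralateral and no-tumor fat their medians were 0.35, 0.15 and 0.01, against 0.02, -0.01 and -0.02 over all genes. Slc7a11, the cystine importer that feeds glutathione synthesis, was low: 2.36, 6.44, 9.17 and 6.72 CPM in HFD peritumoral and 0.482, 0.78, 0.798 and 1.4 CPM in Chow peritumoral libraries, a rise of 2.85 ± 0.44 (adjusted p = 0.00178). Tkt, transketolase of the pentose phosphate pathway, was lower on HFD in peritumoral fat (-1.82 ± 0.15, adjusted p = 0.000137) and contralateral fat (-1.63 ± 0.10, adjusted p = 8.91e-07). The malic enzyme gene Me1, which like Tkt also serves fat synthesis, was lower in both (-1.37 ± 0.25, adjusted p = 0.00423, and -0.71 ± 0.15, adjusted p = 0.00388).

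Enzymes of peroxide and thiol metabolism were mixed in HFD peritumoral against contralateral fat, with 6 of 23 higher and 5 lower (16.8% and 12.7% of all genes) and a median of -0.06. The metallothionein Mt2 (2.06 ± 0.35, adjusted p = 0.00422) and glutaredoxin Glrx (1.42 ± 0.24, adjusted p = 0.00433) rose, and Gpx4 (-0.49 ± 0.09, adjusted p = 0.00648) and Prdx5 (-0.47 ± 0.11, adjusted p = 0.0118) fell. Txn1, the thioredoxin that Txnrd1 reduces, had 58.2, 86.3, 64.8 and 70.9 CPM in HFD peritumoral and 40, 39, 34.9 and 40.7 CPM in HFD no-tumor libraries, a rise of 0.87 ± 0.12 (adjusted p = 0.000611). By diet, 14 of 23 of these enzymes were higher and 2 lower in contralateral fat (24.5% and 24.8% of all genes), with Prdx5 at 1.25 ± 0.08 (adjusted p = 9.47e-07) and Prdx6 at 0.77 ± 0.07 (adjusted p = 6.29e-06). In no-tumor fat 3 of 23 were higher and 4 lower on HFD (13.6% and 11.3% of all genes). In peritumoral fat 8 of 23 were higher and 1 lower (16.4% and 17.2% of all genes).

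Some genes around heme breakdown and superoxide production were also higher in HFD peritumoral fat. Of 9 heme and iron genes tested against contralateral fat, 4 were higher, beside 16.8% of all genes, and none lower, beside 12.7%, among them haptoglobin Hp (1.34 ± 0.26, adjusted p = 0.00722) and biliverdin reductase Blvrb (0.31 ± 0.07, adjusted p = 0.0103). Of the 7 NADPH oxidase genes, whose products make superoxide, the 6 of the phagocyte oxidase were higher and none was lower (16.8% and 12.7% of all genes), with a median of 0.98, while Nox4, which phagocytes do not rely on, was at 0.01 (adjusted p = 0.979). Cyba, which encodes a membrane subunit of the oxidase, rose by 0.98 ± 0.12 (adjusted p = 0.00108). The phagocyte oxidase genes are expressed by macrophages, whose 8 markers had a median of 0.97 in the same comparison, and the part of macrophage number was not tested. Red blood cell markers, which include hemoglobin genes, summed to 400 to 663 CPM in HFD peritumoral and 310 to 497 CPM in HFD contralateral libraries, and none of the 5 was called between them. Against HFD no-tumor fat (214 to 398 CPM) all 5 were called higher in HFD peritumoral fat, with a median of 0.73. All 5 were also higher on HFD than on Chow in peritumoral fat (median 1.54; 132 to 199 CPM on Chow) and in contralateral fat (median 1.07; 187 to 209 CPM on Chow). Their part in the Hmox1 results was not tested.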

How the data were processed

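The authors deposited 1 matrix of raw counts per gene for 24 libraries, with gene positions and exon bases on mm10, per the file headers. The submitters' processing notes name TopHat and DESeq. Their versions, the counting program and the strand setting are not given in the sources used here. Of 39017 genes, 37607 matched a symbol. Groups came from the labels. A comparison of 2 groups used its own 8 libraries and an interaction its 16, in edgeR 4.0.16 (R 4.3.3): TMM factors, filterByExpr (minimum count 10, total 15), robust quasi-likelihood F test, Benjamini-Hochberg adjustment over all genes tested, threshold 0.05. All 10 genes passed the filter in every comparison. Alternatives used DESeq2 1.42.0 and limma 3.58.1. The steps were tested on simulated counts. Likeness is Pearson's r of log2 CPM (prior count 2). Of 36 replicate pairs none looked duplicated: the median chi-square per gene was 0.93 to 7.41, against 0.455 for sampling noise. The 10 genes, the gene lists and the tests were chosen with earlier results of these data known. From each other list up to 2 higher and 2 lower genes with the lowest adjusted p were eligible to be named.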

Additional observations from a re-analysis of the deposited data

Results flagged for a closer look

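In 4 of 60 groups of 4 libraries, 1 library lay far from the other 3, with a gap that exceeded Dixon's 95% critical share of the group's range. Chance gives about 1 in 20 such groups. Nqo1 had 5.39 CPM in Chow contralateral replicate 1, against 3.39 to 3.72 CPM in the other 3. Gclc had 47.9 CPM in HFD peritumoral replicate 3, against 40 to 40.7 CPM. Gclm had 35.7 CPM in HFD contralateral replicate 4, against 30.1 to 31 CPM. Sod3 had 282 CPM in HFD peritumoral replicate 2, against 378 to 384 CPM, and remained above all Chow libraries.

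Other values stand here because the effect of tumor bearing or position differed between diets by a test of the difference (edgeR's quasi-likelihood test, adjusted over all genes). For contralateral against no-tumor fat, the HFD effect minus the Chow effect was 1.15 for Hmox1, 0.56 for Srxn1, 0.35 for Txnrd1, 0.45 for Sod1, 0.89 for Sod3 and -0.40 for Gclc. For peritumoral against no-tumor fat it was 1.17 for Srxn1 and 0.72 for Txnrd1.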

How the results depend on the processing

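Of 2160 single-gene values under alternatives, 2036 kept their direction and side of the threshold, 76 lost a call and 48 gained one. No called value changed sign, and 56 uncalled ones did. The number of the 10 genes called moved by over 1.5 times in these cases, whose cause was not tested. For contralateral against no-tumor fat on HFD (2 called), DESeq2 gave 4, voom with quality weights 4, 1 fit of all 24 libraries 0, library sizes without mitochondrial rRNA and Gm42418 1, and leaving out 1 library 0 to 3. On Chow (3 called) the 24-library fit gave 0 and leaving out 1 library 0 to 4. For peritumoral against no-tumor fat on HFD (3 called), voom gave 5. The interaction of diet with tumor side (0 called) gave 4 with voom and 0 to 3 on leaving out 1 library. That with distant tumor bearing (6 called) gave 2 in the 24-library fit. That with peritumoral against no-tumor fat (2 called) gave 4 with DESeq2, 4 with voom and 2 to 4 on leaving out 1 library. In the 24-library fit the contralateral diet calls of Hmox1 (0.96, adjusted p = 0.122) and Txnrd1 (0.30, adjusted p = 0.0597) were lost.

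With the replicate number as a block, the calls for contralateral against no-tumor fat were 1 on HFD and 0 on Chow, and Hmox1 was called between diets in peritumoral fat (2.45, adjusted p = 0.00494). The deviations of same-numbered libraries correlated at -0.52 to 0.50, and in no comparison did all 4 numbers exceed 0.1. For HFD peritumoral against contralateral fat, the 2 sides of tumor-bearing mice, they were 0, 0.20, 0.37 and 0.50, 3 of 4 libraries matched their own number best, and 4 of the 10 genes were called with the block as without it. On Chow they were 0.12, 0.32, -0.02 and 0.01, with 1 best match. This is a hint from the data only: whether same-numbered sides share an animal is unknown.

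Over all genes, the interaction of diet with tumor side had 0 calls with edgeR, 727 with DESeq2, 1472 with voom, 333 in the 24-library fit and 148 with the block. Contralateral against no-tumor fat had 956 calls on HFD and 1268 on Chow, against 238 and 692 in the 24-library fit and 629 and 356 with the block. Peritumoral against no-tumor fat on Chow had 21 calls with edgeR, 651 with DESeq2, 172 with voom and 821 in the 24-library fit. In the 24-library fit, HFD against Chow in peritumoral fat had 8799 calls against 5353, and the interaction with distant tumor bearing 1556 against 3314. Voom gave 5316 against 3456 for the interaction with peritumoral against no-tumor fat. Leaving out 1 library moved the all-gene counts over 1.5 times as follows. HFD peritumoral against contralateral fat (4610) ranged over 2750 to 6425, falling that far without HFD peritumoral replicate 4 and HFD contralateral replicates 1, 2 and 3. HFD against Chow in peritumoral fat (5353) ranged over 3102 to 6003, with 3102 without Chow peritumoral replicate 1. Contralateral against no-tumor fat ranged over 365 to 1220 on HFD, with 560, 461 and 365 without no-tumor replicates 1, 2 and 3 and 531 without contralateral replicate 3. On Chow it ranged over 375 to 1986, and each of the 8 libraries moved it that far. Peritumoral against no-tumor fat on Chow ranged over 1 to 78, again with each of 8. The interaction with tumor side had 1911 calls without HFD peritumoral replicate 1, 68 without Chow peritumoral replicate 3 and 1 without Chow contralateral replicate 4. That with peritumoral against no-tumor fat had 2258 without Chow peritumoral replicate 1. Without a low-count filter, peritumoral against no-tumor fat on Chow had 222 calls. Among the 10 genes, Nqo1 had the fewest counts, and Slc7a11, not one of them, had as few as 2 in a Chow no-tumor library.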
